A study of Mus musculus with 6 samples.

Results

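The genes Gpnmb, Spp1, Cd9, Cd63, Lgals3, Fabp4 and Fabp5, core markers of lipid-associated macrophages, were followed in RNA-seq libraries of CD11c+ cells from the liver. They were taken by gene symbol, and all 7 had a row among the 31426 genes of the count table. Lipid-associated macrophages are phagocytes that gather where cells are overloaded with fat, as in obese adipose tissue and the steatotic liver, where they surround fat-laden or dying cells and degrade what they take up. Their program needs the lipid receptor Trem2 and joins lysosomal proteins, lipid carriers and secreted matrix proteins, and the genes followed here are among its most used markers. Autophagy, the delivery of cytoplasm and organelles to lysosomes, needs Atg5, a component of the complex that attaches LC3 to the growing autophagosome membrane.

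Both groups were male C57BL/6 mice (C57BL/6J by the study's methods), given as 4 to 8 weeks old, fed a high-fat diet (HFD) for 14 weeks. The 3 WT libraries (numbered 21, 22 and 23) were from mice that the study describes as littermates carrying the floxed Atg5 allele, and the 3 Atg5 CD11cKO libraries (25, 26 and 27) from mice with both Atg5 alleles floxed and, by the study's methods, homozygous for a Cre transgene under the Itgax (CD11c) promoter. That Cre acts in dendritic cells (DCs) and in macrophages that express CD11c, so the deletion is not limited to one cell type. Cells were isolated on CD11c MicroBeads by the study's methods (a sort by CD45 and CD11c in its reporting summary), and polyA libraries were made from 10 ng of RNA. The reporting summary counts sorted cells by mouse, but neither it nor the labels tie a library to 1 mouse or to several, so p-values measure the spread between libraries, which may be technical. The comparison asks how the loss of Atg5 in CD11c+ cells of mice on HFD went with the level of each marker.

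The libraries held 31064570 to 34034675 estimated counts each. The library labelled WT 23 stood apart from its group. Atg5 was at 54.0 and 49.8 CPM (counts scaled to a common library size, with TMM factors) in WT 21 and WT 22, but at 22.1 in WT 23 as labelled. The Atg5 CD11cKO libraries were at 21.3, 21 and 20.8. Across genes, the library labelled WT 23 had a Pearson correlation of log2 CPM of 0.980 to 0.982 with the Atg5 CD11cKO libraries and of 0.947 to 0.949 with WT 21 and WT 22 (genes are not independent replicates). The fold change of each of the 7 genes is therefore given for the 6 libraries as labelled and without the library labelled WT 23. For many other genes it is given only without that library, where the text says so. Leaving out that library was chosen after its values were seen, so each p-value without it is conditional on that choice. Over the 6 libraries edgeR's quasi-likelihood test called 0 of 17499 genes at an adjusted p under 0.05 (2515 had an unadjusted p under 0.05, DESeq2 called 44 higher and 372 lower, and limma-voom called 0). Without the library labelled WT 23, 2900 of 18241 genes were higher in Atg5 CD11cKO and 2755 were lower. Itgax, which encodes CD11c, was at 432 to 472 CPM in the WT libraries and at 464 to 492 CPM in the Atg5 CD11cKO libraries.

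Marker genes of several cell types also differed in level between the libraries. All 8 macrophage markers, among them Adgre1, Csf1r and Mertk, were detected in each library, and their summed level was 2769 to 2770.3 CPM in WT 21 and 22, 5016 CPM in the library labelled WT 23 and 5135 to 5183 CPM in Atg5 CD11cKO. The 8 markers of resident Kupffer cells went the other way, from 1964 to 1979 CPM in WT 21 and 22 to 942 CPM in the library labelled WT 23 and 962 to 982 CPM in Atg5 CD11cKO. Plasmacytoid DC markers summed to 1948 to 1965 CPM in WT 21 and 22 and to 778 to 790 CPM in Atg5 CD11cKO. In the library labelled WT 23 they summed to 788 CPM. The 8 conventional DC markers summed to 1804 to 1869 CPM in WT 21 and 22, 1647 CPM in the library labelled WT 23 and 1627 to 1651 CPM in Atg5 CD11cKO, but moved both ways: without the library labelled WT 23, 3 were higher, as Ccr7 from a mean of 274 to 593 CPM, and 5 were lower, as Cd209a from 224 to 34.9 CPM. Pancreatic acinar genes summed to 17441 to 17716 CPM in WT 21 and 22, to 323 CPM in the library labelled WT 23 and to 342 to 355 CPM in Atg5 CD11cKO. Hepatocyte markers summed to 1348 to 1384 CPM in WT 21 and 22 and to 308 to 316 CPM in Atg5 CD11cKO. Their sum in the library labelled WT 23 was 311 CPM. No marker of these lists was at 0 in every library. Without the library labelled WT 23, 15.9% of all genes tested were called higher and 15.1% lower. In such bulk RNA a change in the number of cells of a type and a change in RNA per cell cannot be told apart, and the part of these shifts in the marker results was not tested.

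For 5 of the 7 genes (not Fabp4 or Fabp5) the 250 bases before an annotated start site were at hand from RefSeq, on the build GRCm38.p6 and in the direction of transcription. The windows of Gpnmb, Spp1 and Cd63 are shown because these genes changed most among the 5. Capitals mark the only matches found on either strand to 6 motifs:
Gpnmb, chr6:49036268-49036517, plus strand: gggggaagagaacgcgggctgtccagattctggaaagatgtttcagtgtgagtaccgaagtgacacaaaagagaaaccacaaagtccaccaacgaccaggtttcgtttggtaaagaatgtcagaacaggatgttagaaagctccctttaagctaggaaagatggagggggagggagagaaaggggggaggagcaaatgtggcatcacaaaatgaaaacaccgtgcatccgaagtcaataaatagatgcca
Spp1, chr5:104434861-104435110, plus strand: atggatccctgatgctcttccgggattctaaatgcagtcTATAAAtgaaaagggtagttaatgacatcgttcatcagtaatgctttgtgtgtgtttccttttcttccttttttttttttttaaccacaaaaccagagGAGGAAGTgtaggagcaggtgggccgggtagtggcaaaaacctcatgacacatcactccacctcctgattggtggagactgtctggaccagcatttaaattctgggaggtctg
Cd63, chr10:128909095-128909344, plus strand: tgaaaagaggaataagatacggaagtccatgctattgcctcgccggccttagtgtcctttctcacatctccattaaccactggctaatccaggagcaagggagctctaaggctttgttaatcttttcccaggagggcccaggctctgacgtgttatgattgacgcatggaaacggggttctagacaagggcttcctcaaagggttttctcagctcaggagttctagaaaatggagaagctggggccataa
The motifs were the E-box CACGTG (in 6.02% of the 32851 windows of this length), the M-box TCATGTG (3.25%), the AP-1 motif TGANTCA (6.75%), the PU.1 motif GAGGAAGT (2.44%), the core nuclear receptor motif AGGTCA (14.0%) and the TATA box TATAAA (12.4%). The Spp1 window held GAGGAAGT 113 bases and TATAAA 211 bases before the start, and the windows of Gpnmb, Cd9, Cd63 and Lgals3 held none of the 6. A second annotated Spp1 start, 104436192, had no match either.

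In the libraries as labelled, none of the 7 genes passed the test, although each had a higher fitted mean in Atg5 CD11cKO. Of all genes tested, 0% were called higher in that comparison. Without the library labelled WT 23, all 7 were higher in Atg5 CD11cKO, where 15.9% of all genes tested were called higher and 15.1% lower, with log2 fold changes from 0.53 for Cd9 to 5.27 for Gpnmb and a median of 2.28. The median over all genes was -0.01. The values by library fell into a low pair, WT 21 and WT 22, and a high set of 4 that held the library labelled WT 23 with the Atg5 CD11cKO libraries.

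**Figure D1:**
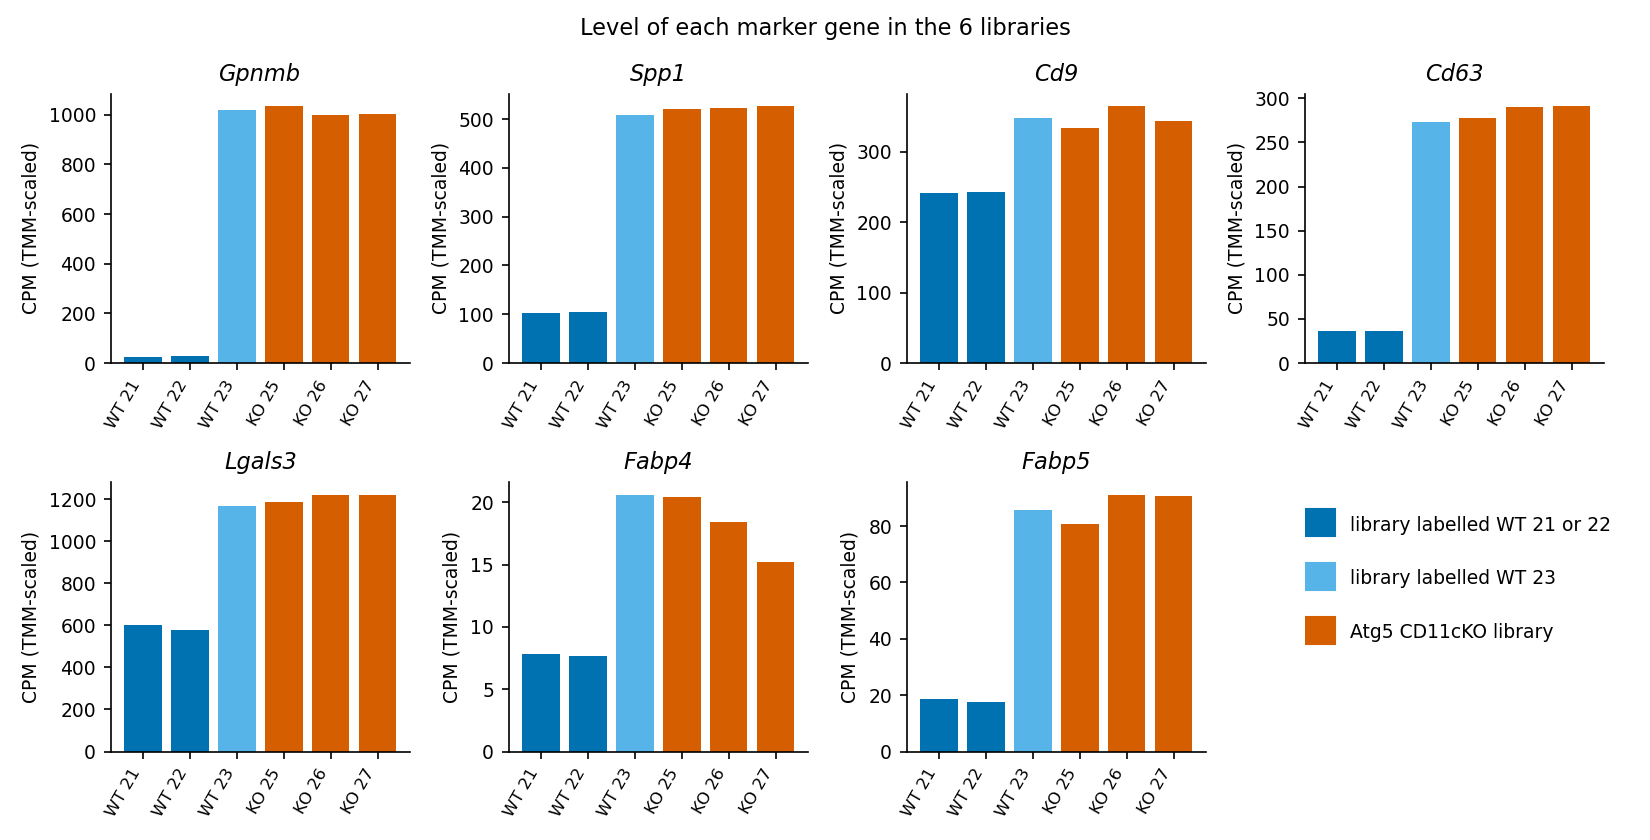
CPM of each gene (vertical axis, starting at 0, scaled by TMM) in the 6 libraries, 1 bar per library, with WT 21 and 22 in dark blue, the library labelled WT 23 in light blue and the Atg5 CD11cKO libraries (KO) in orange. In each panel the WT 21 and 22 bars are the lowest and the library labelled WT 23 stands at the height of the Atg5 CD11cKO bars, as for Gpnmb with 24.3 and 28.1 against 1021 and 998 to 1033 CPM.

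Gpnmb encodes a transmembrane glycoprotein of macrophages and pigment cells that rises when lysosomes are stressed. The gene lies on chromosome 6 of mm10 (49036546 to 49070929, plus strand). It was at 24.3 CPM in WT 21, 28.1 CPM in WT 22 and 1021 CPM in the library labelled WT 23, and at 1033, 998 and 1001 CPM in Atg5 CD11cKO. The library labelled WT 23 thus lay within the Atg5 CD11cKO range, and the groups overlapped. Over 6 libraries the log2 fold change was 1.5 ± 1.28 (SE; edgeR adjusted p = 0.559), against 3.53 by limma-voom (adjusted p = 0.329) and 0.95 by edgeR without WT 21 or without WT 22 (adjusted p = 0.788 and 0.805, in that order). Without the library labelled WT 23, the means were 26.2 ± 2.65 CPM (SD, n = 2) in WT and 1011 ± 19.6 CPM (SD, n = 3) in Atg5 CD11cKO, a ratio of 38.6, and the log2 fold change was 5.27 ± 0.06 (SE; edgeR adjusted p = 4.8e-14). Only 0.0932% of the genes tested had a fold change as high, and Gpnmb ranked 17 of 18241. These values rested on 782 and 949 estimated counts in WT 21 and 22 and on 31825 to 32661 in the other libraries.

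Spp1 encodes osteopontin, a secreted phosphoprotein that binds integrins and CD44 and acts as a cytokine and matrix protein. The gene lies on chromosome 5 (104435118 to 104441050, plus strand). Its level was 103 and 104 CPM in WT 21 and 22, 508 CPM in the library labelled WT 23 and 521, 522 and 526 CPM in Atg5 CD11cKO. Even with the library labelled WT 23 the groups did not overlap, by a margin of 508 against 521 CPM. The log2 fold change was 1.13 ± 0.60 (SE; edgeR adjusted p = 0.378) over 6 libraries and 2.34 ± 0.04 (SE; edgeR adjusted p = 1.3e-12) without that library. The means were 104 ± 0.680 CPM in WT 21 and 22 (SD, n = 2) and 523 ± 2.62 CPM in Atg5 CD11cKO (SD, n = 3). The 3 Atg5 CD11cKO libraries differed by a coefficient of variation of 0.501%, the smallest of the 7 genes. Counting error alone would give 0.774%. Cholangiocytes, the cells of the bile ducts, also make osteopontin, and their 8 markers summed to 72.4 and 82 CPM in WT 21 and 22, 84.1 CPM in the library labelled WT 23 and 77.8 to 86.6 CPM in Atg5 CD11cKO, ranges that overlapped. Of their 7 markers tested, 1 (Ehf) was higher without the library labelled WT 23, where 15.9% of all genes tested were called higher. The part of cholangiocyte RNA in the Spp1 result was not tested.

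The tetraspanins are membrane proteins with 4 passes that gather partners such as integrins into patches, and both members of the family followed here were higher without the library labelled WT 23. Cd9 (chromosome 6, 125460266 to 125494791, minus strand) sits mostly at the cell surface. It was at 241 and 243 CPM in WT 21 and 22, 349 CPM in the library labelled WT 23 and 334, 365 and 344 CPM in Atg5 CD11cKO, so that the library labelled WT 23 lay within the Atg5 CD11cKO range. This was the smallest change of the 7, with means of 242 ± 1.51 CPM in WT 21 and 22 (SD, n = 2) and 348 ± 15.4 CPM in Atg5 CD11cKO (SD, n = 3). The log2 fold change was 0.33 ± 0.15 (SE; edgeR adjusted p = 0.352) over 6 libraries and 0.53 ± 0.04 (SE; edgeR adjusted p = 3.7e-06) without the library labelled WT 23, and 16.0% of all genes tested had a fold change as high. Platelets carry Cd9 too, and of their 8 markers the chemokine gene Pf4, which macrophages can also express, made up most of a summed level of 10.6 to 11.2 CPM in WT 21 and 22, 26.1 CPM in the library labelled WT 23 and 24.3 to 25.8 CPM in Atg5 CD11cKO. The platelet glycoprotein genes Gp9 and Gp1bb were below 0.3 CPM in every library, and the part of platelet RNA in the Cd9 result was not tested.

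Cd63 (chromosome 10, 128900989 to 128912822, plus strand) resides in late endosomes, lysosomes and the vesicles they release. Its level was 36.6 and 35.8 CPM in WT 21 and 22, 273 CPM in the library labelled WT 23 and 278, 290 and 291 CPM in Atg5 CD11cKO. The groups did not overlap, with 273 against 278 CPM at the nearest. The log2 fold change was 1.31 ± 0.75 (SE; edgeR adjusted p = 0.406; limma-voom 2.03, adjusted p = 0.329) over 6 libraries and 2.99 ± 0.05 (SE; edgeR adjusted p = 2.9e-12) without that library, with means of 36.2 ± 0.595 CPM (SD, n = 2) and 286 ± 7.21 CPM (SD, n = 3).

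Lgals3 encodes galectin-3, a lectin that binds β-galactosides, is secreted by macrophages and is drawn to damaged lysosomes. The gene lies on chromosome 14 (47367751 to 47386160, plus strand). It was at 599 and 579 CPM in WT 21 and 22, 1168 CPM in the library labelled WT 23 and 1186, 1217 and 1220 CPM in Atg5 CD11cKO. These groups did not overlap either, with 1168 against 1186 CPM at the nearest. With the library labelled WT 23 left out, the level was 589 ± 14.7 CPM (SD, n = 2) in WT and 1208 ± 18.8 CPM (SD, n = 3) in Atg5 CD11cKO, a log2 fold change of 1.04 ± 0.03 (SE; edgeR adjusted p = 2.2e-10). Over 6 libraries it was 0.63 ± 0.26 (SE; edgeR adjusted p = 0.346), where Lgals3 had the lowest adjusted p of the 7.

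Fabp4 and Fabp5 encode small cytosolic proteins that carry fatty acids, known as the adipocyte and the epidermal form, and macrophages make both. The genes lie on chromosome 3, Fabp4 from 10204088 to 10208576 on the minus strand and Fabp5 from 10012548 to 10016607 on the plus strand. Fabp4 was at 7.81 and 7.70 CPM in WT 21 and 22, 20.6 CPM in the library labelled WT 23 and 20.4, 18.4 and 15.2 CPM in Atg5 CD11cKO. Here the library labelled WT 23 was the highest of the 6. The log2 fold change was 0.58 ± 0.39 (SE; edgeR adjusted p = 0.462; 0.35 without WT 21 and 0.34 without WT 22, adjusted p = 0.776 and 0.792) over 6 libraries and 1.22 ± 0.17 (SE; edgeR adjusted p = 0.00020) without that library. Fabp4 was also the least even of the 7, with a coefficient of variation of 14.6% over the Atg5 CD11cKO libraries, where counting error alone would give 4.17%. Adipocytes and endothelial cells express Fabp4 as well. The adipocyte genes Adipoq, Plin1, Retn, Cfd and Lep were below 0.3 CPM in all 6 libraries, and the 8 adipocyte markers, dominated by Pck1, which hepatocytes also express, summed to 72.9 to 80.2 CPM in WT 21 and 22, 9.51 CPM in the library labelled WT 23 and 12 to 13.1 CPM in Atg5 CD11cKO. The 11 endothelial markers summed to 229 to 231 CPM in WT 21 and 22 and 279 CPM in the library labelled WT 23. In Atg5 CD11cKO they summed to 267 to 286 CPM. Without the library labelled WT 23, 6 were higher, 2 (Pecam1 and Cdh5) were lower and 3 were not called. Of all genes tested, 15.9% were called higher there and 15.1% lower. The part of these cell types in the Fabp4 result was not tested.

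Fabp5, the neighbour of Fabp4, was at 18.6 and 17.6 CPM in WT 21 and 22, 85.7 CPM in the library labelled WT 23 and 80.8, 91.1 and 90.5 CPM in Atg5 CD11cKO. The library labelled WT 23 lay within the Atg5 CD11cKO range, so the labelled groups overlapped. The log2 fold change was 1.11 ± 0.58 (SE; edgeR adjusted p = 0.378) over 6 libraries and 2.28 ± 0.09 (SE; edgeR adjusted p = 5.1e-09) without that library. Means were 18.1 ± 0.728 CPM in WT 21 and 22 (SD, n = 2) and 87.4 ± 5.77 CPM in Atg5 CD11cKO (SD, n = 3).

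**Figure D2:**
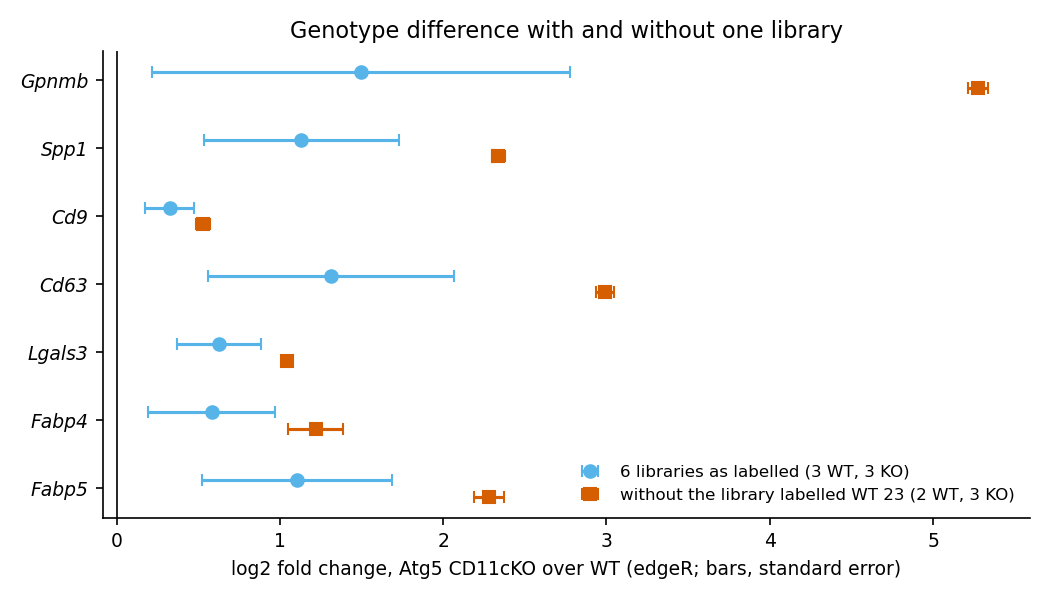
Log2 fold change of each gene, Atg5 CD11cKO over WT, from edgeR (horizontal axis) with its standard error as bars, as circles for the 6 libraries as labelled and as squares without the library labelled WT 23. All 14 points lie above 0, and the circles, from 0.33 to 1.5, carry wider bars than the squares, from 0.53 to 5.27.

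With the 6 libraries as labelled, the groups did not overlap for 3 of the 7 genes, Spp1, Cd63 and Lgals3, and 9.59% of all genes tested were higher in Atg5 CD11cKO with no overlap. For these 3 a two-sided exact permutation test over the 20 splits into 3 and 3 libraries gave p = 0.1, which is the smallest p that this design allows. Its p was 0.2 for Fabp5, 0.3 for Gpnmb and Cd9 and 0.4 for Fabp4. None of the 7 overlapped without the library labelled WT 23, where 27% of all genes tested were higher with no overlap. In the library labelled WT 23 the level of each gene was 95.3% (Cd63) to 114% (Fabp4) of the Atg5 CD11cKO mean. The position of that library was taken on log2 CPM, with the mean of WT 21 and 22 set at 0% and the Atg5 CD11cKO mean at 100%. Over the 5655 genes called without that library, its position had a median of 96.9% (quartiles 79.6% to 111%), and for the 7 genes it was 95.4% to 117%.

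Levels of different genes were compared as CPM per kilobase of the principal transcript, which is 896 (Fabp4) to 3701 (Gpnmb) bases long. In WT 21 and 22, Lgals3 was highest with a mean of 415, followed by Cd9 with 197, Spp1 with 68.9, Cd63 with 32.6, Fabp5 with 18.3, Fabp4 with 8.65 and Gpnmb with 7.08 CPM per kilobase. No pair of neighbours in that order overlapped between the 2 libraries. In Atg5 CD11cKO the order was Lgals3 (851 ± 13.2 CPM per kilobase, SD, n = 3), Spp1 (347 ± 1.74), Cd9 (283 ± 12.5), Gpnmb (273 ± 5.29), Cd63 (258 ± 6.50), Fabp5 (88.6 ± 5.85) and Fabp4 (20.1 ± 2.93), where Cd9 and Gpnmb were the only neighbours whose libraries overlapped. Gpnmb was thus the lowest of the 7 in WT 21 and 22 and lay beside Cd9 in Atg5 CD11cKO. With the length of all annotated exons in its place, a choice made after seeing the data, Gpnmb was above Fabp4 in WT 21 and 22 and the order in Atg5 CD11cKO was the same.

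Summed over the 7 genes, the level was 754 and 741 CPM per kilobase in WT 21 and 22, 2076 in the library labelled WT 23 and, in Atg5 CD11cKO, 2089, 2145 and 2131. Gpnmb supplied 0.871% and 1.02% of that sum in WT 21 and 22 and 12.6% to 13.4% in the other 4 libraries, while Lgals3 supplied 56% and 55% and then 39.6% to 40.4%. All 8 macrophage markers rose too without the library labelled WT 23, with a median log2 fold change of 0.88, beside 0.53 for Cd9, 1.04 for Lgals3 and 1.22 to 5.27 for the other 5 genes. The part of a larger macrophage share in these levels was not tested.

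**Figure D3:**
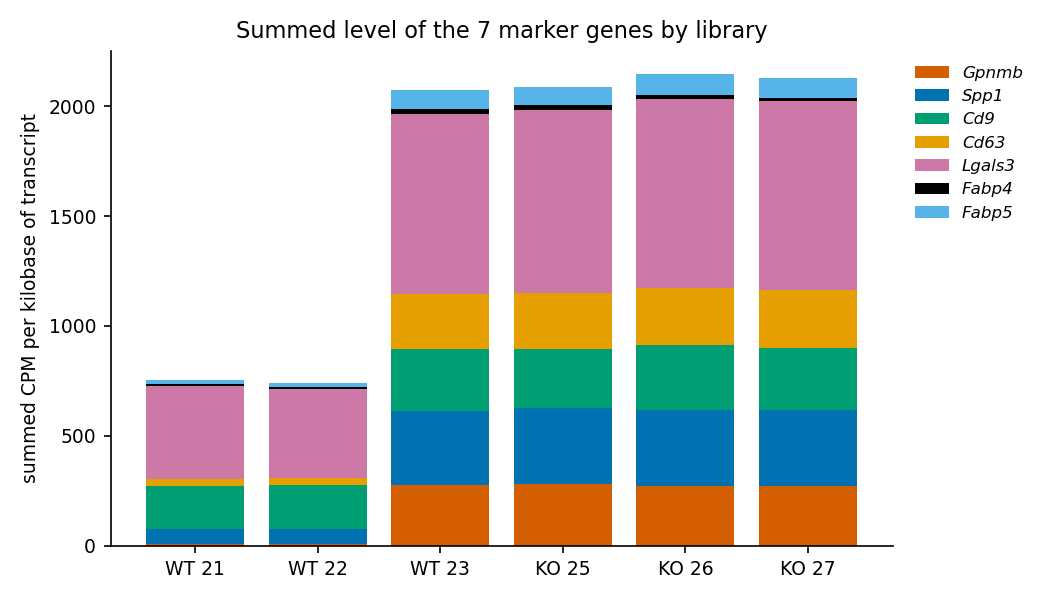
Summed level of the 7 genes in CPM per kilobase of principal transcript (vertical axis) in the 6 libraries, each bar divided by gene (KO, Atg5 CD11cKO). WT 21 and 22 reach 754 and 741, the other 4 libraries 2076 to 2145, and the Gpnmb segment is visible only in those 4.

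Near-identical copies of Cd63 and Fabp5 in the mouse genome could take part of their reads. A search of annotated transcripts for matches of at least 75 bases at 95% identity or more found Cd63-ps for Cd63 (98.5% over 812 bases) and Gm6166 for Fabp5 (98.3% over 409 bases, chromosome 9, 57483963 to 57484371). A second copy of Fabp5, Gm14328, was near 0 CPM in all 6 libraries. The principal Fabp5 transcript is 987 bases long, so the match with Gm6166 covers only part of it. Within that part little separates reads of the pair, as the stretch of 120 bases below shows. It is taken from the coding part of Fabp5 (bases 259 to 378 of 408) and from Gm6166 (bases 261 to 380 of 409). Capitals mark the bases that differ:
Fabp5: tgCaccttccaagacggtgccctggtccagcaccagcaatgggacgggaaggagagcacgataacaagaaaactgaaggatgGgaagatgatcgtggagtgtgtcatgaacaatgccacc
Gm6166: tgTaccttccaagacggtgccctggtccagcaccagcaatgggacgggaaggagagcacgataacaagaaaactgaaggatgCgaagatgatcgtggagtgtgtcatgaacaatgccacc

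Cd63-ps (chromosome 18, 50134726 to 50135600) was at 14.8 and 16.8 CPM in WT 21 and 22, 112 CPM in the library labelled WT 23 and 109, 121 and 112 CPM in Atg5 CD11cKO. It held 27.8% to 31.9% of the CPM of the pair in each library. The log2 fold change of Cd63-ps was 1.26 ± 0.73 (SE; edgeR adjusted p = 0.409) over the 6 libraries as labelled. Without the library labelled WT 23 it was 2.86 ± 0.09 (SE; edgeR adjusted p = 5.0e-10). The low pair and the high set of 4 were those of Cd63 itself. Gm6166 was at 4.93 and 6.01 CPM in WT 21 and 22, 33.4 CPM in the library labelled WT 23 and 36.7, 38.1 and 35.9 CPM in Atg5 CD11cKO, or 20.9% to 31.2% of its pair. The log2 fold change of Gm6166 was 1.32 ± 0.67 (SE; edgeR adjusted p = 0.371) over the 6 libraries as labelled. Without the library labelled WT 23 it was 2.76 ± 0.14 (SE; edgeR adjusted p = 3.6e-08). How the study counted reads that match both is not stated, so the split within each pair is uncertain. With the copies' counts added, a choice made after seeing the data, the log2 fold change without the library labelled WT 23 was 2.95 ± 0.05 for Cd63 and 2.41 ± 0.07 for Fabp5 (SE; edgeR adjusted p = 1.4e-12 and 5.0e-10). Gm42793, which overlaps Spp1 on the same chromosome, was at 0.991 to 2.08 CPM in all 6 libraries.

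**Figure D4:**
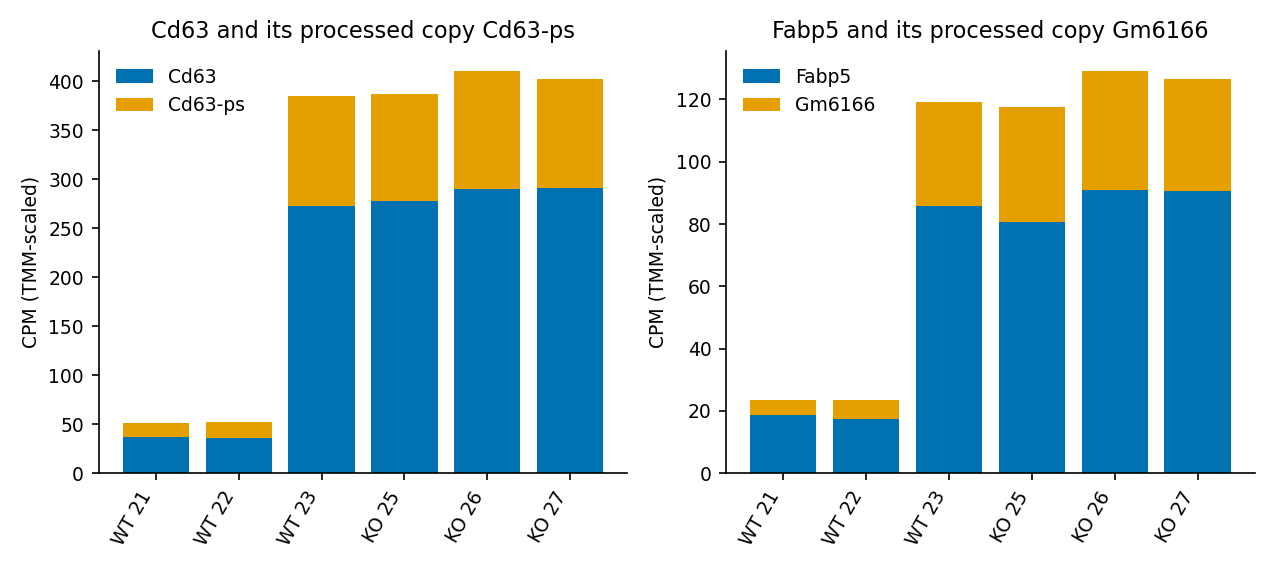
CPM scaled by TMM (vertical axis) of Cd63 with Cd63-ps (left) and of Fabp5 with Gm6166 (right) in the 6 libraries, stacked, with the gene in blue and its copy in orange (KO, Atg5 CD11cKO). The copy is 27.8% to 31.9% of the Cd63 bars and 20.9% to 31.2% of the Fabp5 bars.

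Genes with related roles were then described from lists, in which 0 genes were called over the 6 libraries as labelled, as among all genes. Unless the 6 libraries or the library labelled WT 23 are named, further values in this paragraph are without the library labelled WT 23. Of all genes tested, 15.9% were called higher and 15.1% lower in Atg5 CD11cKO. Of 16 other genes of the lipid-associated macrophage program, 15 were higher and 1 was lower, with a median log2 fold change of 1.21. The smallest rises were those of Itgax (0.14), which encodes the CD11c used to isolate the cells, Cd36 (0.38) and Tyrobp (0.41). Mmp12, a macrophage elastase, went from a mean of 64.8 to 811 CPM (log2 fold change 3.65), Ctsd, a lysosomal aspartic protease, from 713 to 2464 CPM (1.80), Apoe, an apolipoprotein of lipid transport, from 4175 to 10964 CPM (1.40) and Ctsb, a lysosomal cysteine protease, from 2019 to 4022 CPM (1.0). The gene that fell was Ctsl, another lysosomal protease, from 316 to 202 CPM (-0.64). Trem2, named after its values were seen because it is the receptor of this program, was at 12.9 CPM in WT 21 and 22 on average, 127 CPM in the library labelled WT 23 and 126 CPM on average in Atg5 CD11cKO (3.29 ± 0.10, SE). Over the 6 libraries as labelled, the log2 fold change of Trem2 was 1.31 ± 0.84 (SE; edgeR adjusted p = 0.448).

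Relatives of the 7 genes moved in both directions. Of 5 other genes of the fatty acid binding family in the table, 4 were tested. Fabp7 (0.61) and Fabp3 (2.70, from 0.119 to 0.809 CPM, edgeR adjusted p = 0.038) were higher. Fabp3 was near the floor, with 7.83 estimated counts in WT 21 and 22 together, and uneven in Atg5 CD11cKO, with 0.494, 1.59 and 0.344 CPM. Fabp1, the form of hepatocytes, was lower (-0.64) and Fabp2, the intestinal form, was not called (-0.23). Fabp6, Pmp2, Fabp9, Fabp12 and Crabp1 were not analysed here. Of 6 genes tested among the other galectins and relatives, 3 were higher, 1 was lower and 2 were not called, with a median log2 fold change of 0.07. Lgals8 (0.56), the gene for the galectin-3 binding protein Lgals3bp (0.28) and Lgals1 (0.23) rose and Lgals4 (-1.28) fell. Of 22 other tetraspanins tested, 9 were higher, 4 were lower and 9 were not called, with a median of 0.23. Tspan14 (0.84), which guides the protease Adam10 to the cell surface, and Tspan3 (0.62) rose, and Tspan13 (-0.50) and Cd82 (-0.47) fell.

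Partners and receptors of the proteins were described in the same way. Of 7 tetraspanin partners, 4 were higher, none were lower and 3 were not called, with a median of 0.66. Adam10 (0.77), the integrin subunits Itgb1 (0.50) and Itga6 (1.05) and Igsf8 (0.66), an immunoglobulin protein that binds Cd9 and Cd81, were those that rose. Of 8 receptor genes for osteopontin tested, 4 were higher, 1 (Itga4, -0.32) was lower and 3 were not called, with a median of 0.36. The integrin subunit Itgb5 went from 95.9 to 421 CPM (2.14), followed by Itga5 (1.08), Itga9 (0.82) and Itgav (0.68), while the receptor gene Cd44 was at 295 and 303 CPM (0.04, not called).

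Of 12 transcription factor genes linked to lysosomes, lipids or macrophages, 9 were higher, 1 (Jun, -0.20) was lower and 2 (Rxra and Fosl2) were not called, with a median of 0.61. Fos, a component of AP-1, went from 3064 to 4628 CPM (0.60), Nr1h3, the sterol sensor LXRα, from 51.6 to 144 CPM (1.49), Cebpa from 53.0 to 113 CPM (1.09) and Cebpb from 490 to 665 CPM (0.45). The counts and medians of these lists stand beside 15.9% and 15.1% of all genes called higher and lower and a median of -0.01, and no list was tested as a set.

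**Figure D5:**
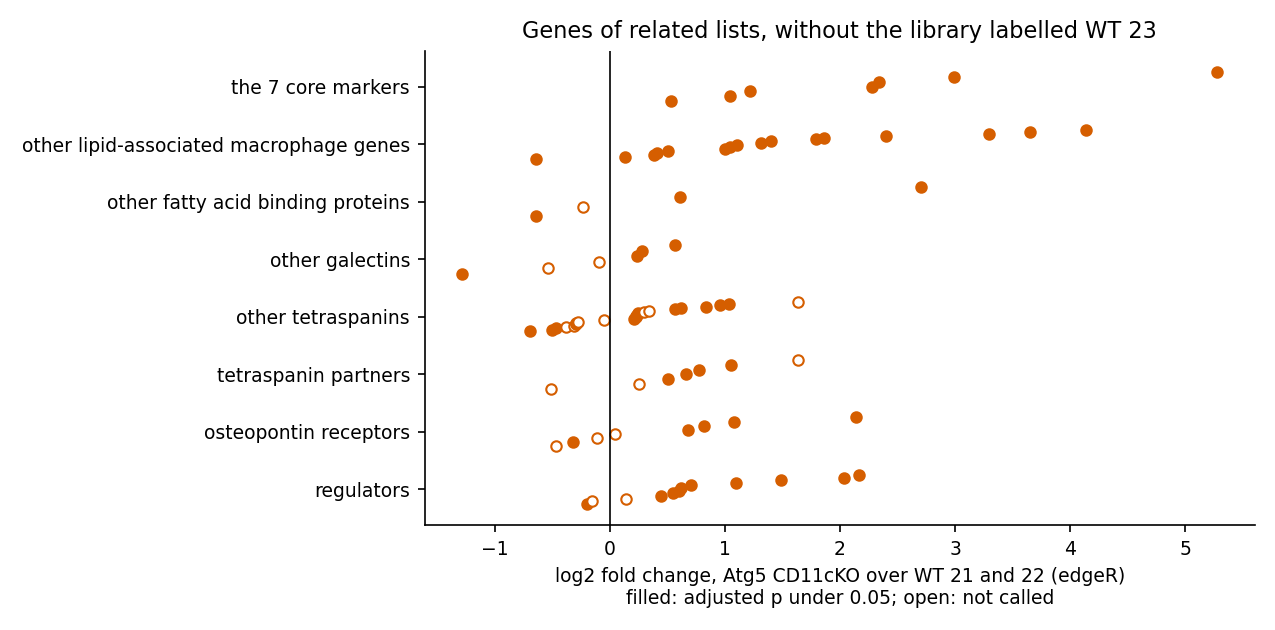
Log2 fold change from edgeR, Atg5 CD11cKO over WT 21 and 22 (horizontal axis), of each tested gene in the 7 core markers and 7 related lists (rows), filled where the adjusted p was under 0.05 and open where it was not. The 7 core markers are all filled and above 0, whereas the other tetraspanins spread to both sides of 0 around a median of 0.23.

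The genes whose pattern was nearest to each of the 7 were found among 17492 other genes. The 7 themselves were left out of the search. The measure was the root mean square difference of log2 CPM, centred per gene over the 6 libraries. A prior count of 2 was added, which shrinks differences of genes at a low level. For Spp1 the nearest were C3ar1, the complement C3a receptor (0.034 on the log2 scale), Lpl, lipoprotein lipase (0.066), and the lectin gene Clec4b1 (0.084). C3ar1 was also nearest to Fabp5 (0.065), before Bvht and H2-M2. For Lgals3 the nearest were C1qb (0.016), a subunit of complement C1q, and the lysosomal protease genes Ctsb (0.022) and Lgmn (0.028). For Cd63 they were its copy Cd63-ps (0.091), 1110019D14Rik (0.133) and Ctsk, another lysosomal protease (0.151). No gene came within 0.1 of Gpnmb, whose nearest was Htra4 (0.464), at 0.0304 CPM on average in WT 21 and 22 and 1.97 CPM in Atg5 CD11cKO, followed by C030029H02Rik and Gm13841. Fabp4 was nearest to Steap1 (0.076), at 0.184 CPM on average in WT 21 and 22 and 0.565 CPM in Atg5 CD11cKO, followed by Gm13502 and Plk2. Cd9 was nearest to Naa16 (0.028), Gid4 and Vps26c, and 576 genes lay within 0.1 of it. The patterns share the libraries and their depth, and the likeness is a description with no test.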

How the data were processed

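Hepatic CD11c+ cells were measured by polyA RNA-seq on an Illumina NextSeq in 3 WT and 3 Atg5 CD11cKO libraries. The authors deposited estimated counts per gene, for which the processing notes list Partek, bcl2fastq 2.17.1.14, the aligner STAR 2.5.3a and the build mm10, and a normalized signal for 20388 genes. Not given in the sources used here are how reads were counted, with which annotation, and whether by strand. Within 1e-06, 32.9% of the deposited counts are whole numbers.

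Counts were rounded, filtered (filterByExpr), scaled by TMM and compared by edgeR 4.0.16 (R 4.3.3; quasi-likelihood test, Benjamini-Hochberg adjustment over all genes at 0.05). Each SE is |log2 fold change|/√F. Alternatives used DESeq2 1.42.0, limma 3.58.1, other scalings and filters, and the omission of each library. The procedure was tested on simulated data. Copies were searched in GENCODE vM21 with blastn 2.17.0, and 99.92% of the file's gene coordinates matched that annotation.

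The 7 genes and all lists were chosen with earlier results of these data known, and some listed genes are not reported here. Named were all 7, up to 4 genes of each list by adjusted p without the library labelled WT 23, and the 3 nearest patterns per gene. Genes given as the exception or as the smallest rises of a list were named after their values were seen.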

Additional observations from a re-analysis of the deposited data

How the results depend on the processing

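Leaving out 1 library at a time from the 6 gave 0 to 2900 genes higher, 0 to 2755 genes lower and 0 to 7 of the 7 markers higher, where the upper values came from omitting the library labelled WT 23 and the others from omitting any other library. DESeq2 called 44 genes higher and 372 lower over the 6 libraries, none of them among the 6 markers for which it gave a p (not Gpnmb). Over the 6 libraries, fold changes on log values were higher than edgeR's for all 7 markers, on the log2 scale up to 3.53 for Gpnmb, 2.03 for Cd63, 1.57 for Spp1 and 1.54 for Fabp5 (limma-voom), and none passed the test. Without the library labelled WT 23, all 7 markers were called higher under each alternative, with log2 fold changes from 0.50 to 0.56 for Cd9, 1.09 to 1.34 for Fabp4 and 5.18 to 5.39 for Gpnmb, while 2353 to 3137 genes were higher and 2170 to 2955 lower. The fits that also left out WT 21 or WT 22 had 1 WT library, assumed to vary like the Atg5 CD11cKO libraries. No fold change of the 7 changed sign. Adding the copies' counts, an alternative chosen after seeing the data, changed no call of the 7. No paired analysis was possible because the genotypes share no replicate numbers. Without the library labelled WT 23, the spread in WT rests on 2 libraries. The nearest patterns to Gpnmb, at 0.0304 CPM in WT, and to Fabp4, at 0.184 CPM, rest on few counts.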
